A study of Xenopus tropicalis with 9 samples.

Results

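The genes described here were detected in every cartilage library and in no bone library of a laser capture RNA-seq study of the western clawed frog, Xenopus tropicalis. They were chosen from the measured values themselves. A gene was taken when its deposited value was at or above a detection level in all 6 cartilage libraries and below it in all 3 osteoblast libraries. The level was 9.52, which is 1 ppm (a share times 1000000) of the mean library total. Genes that were far higher or far lower in mature replicates 2 and 3 than in the immature libraries were left out. The rule kept 99 of 10336 genes. Because the rule used all 9 libraries and both contrasts, the values below describe the 99 genes, and no test of them is offered as support for their pattern.

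All animals were wild type, untreated apart from feeding, and at developmental stage NF 57, reached after 22 to 24 days at 27 to 28 °C. The 3 groups held 3 libraries each: immature and mature chondrocytes, both from the humerus, and osteoblasts from the medial angulosplenial, a bone of the lower jaw. Which animal gave which library is not in the labels. P-values therefore set a group difference against the spread of these samples only, and that spread may be technical. Every cartilage library came from the limb and every bone library from the jaw, so cell type and body site cannot be told apart. In bulk libraries of this kind, fewer cells expressing a gene and less of its RNA per cell cannot be told apart either.

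Chondrocytes are the only cell type inside cartilage and surround themselves with a matrix rich in collagen and sulphated proteoglycan. In the limb skeleton immature chondrocytes divide, and mature ones enlarge and alter that matrix. Osteoblasts lay down a mineralised matrix. The vertebrate limb skeleton derives from mesoderm and the lower jaw largely from cranial neural crest. The table names genes by Ensembl identifiers alone. The reference annotation used here gave a symbol to 0 of the 99 identifiers and to 0 of all 10336, so this is no trait of the 99. No role is therefore given to any of them, and the labelled cell types were not checked against their marker genes.

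The 9 libraries rested on an estimated 7160000 to 13070000 reads each. Mature replicates 2 and 3 stood apart from the other cartilage libraries. The number of genes listed at 0 was 2014 and 1430 there, against a range of 759 to 1026 for the other 4, and 1 read there was worth 1.595 and 1.588 deposited units against 0.732 to 0.939. The detection level therefore equalled 5.97 and 5.99 reads in those libraries, and 10.1 to 13.0 reads in the other cartilage libraries. In the osteoblast libraries it equalled 9.55, 8.14 and 11.4 reads. As a share of each library's own total, the level lay between 0.677 ppm in mature replicate 3 and 1.25 ppm in mature replicate 1.

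The cartilage-detected genes were mostly of low abundance. Their mean level over the 6 cartilage libraries ran from 1.68 to 68.8 ppm with a median of 4.12 ppm, where all 9080 genes tested had a median of 10.8 ppm. Only 1 gene of the 99 exceeded 50 ppm, 17 stood at 10 ppm or more, 24 lay between 5 and 10 ppm, and 58 were under 5 ppm. The most abundant ranked at position 1270 of the table by cartilage level and the median gene at 6267. The 10 most abundant held 42.7% of the summed cartilage level of all 99. Together the 99 genes took 777, 981 and 833 ppm of the immature libraries, 936, 780 and 469 ppm of the mature libraries, and 8.75, 24.6 and 21.0 ppm of the osteoblast libraries. Mature replicate 3 had the lowest summed level of the 6 cartilage libraries. The differences depended on the scale. In deposited values the sums were 6885, 7708 and 6891 in the immature libraries and 7107, 8901 and 6592 in the mature libraries. Mature replicate 3 was then lowest by less, and mature replicate 2 was the highest.

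**Figure D1:**
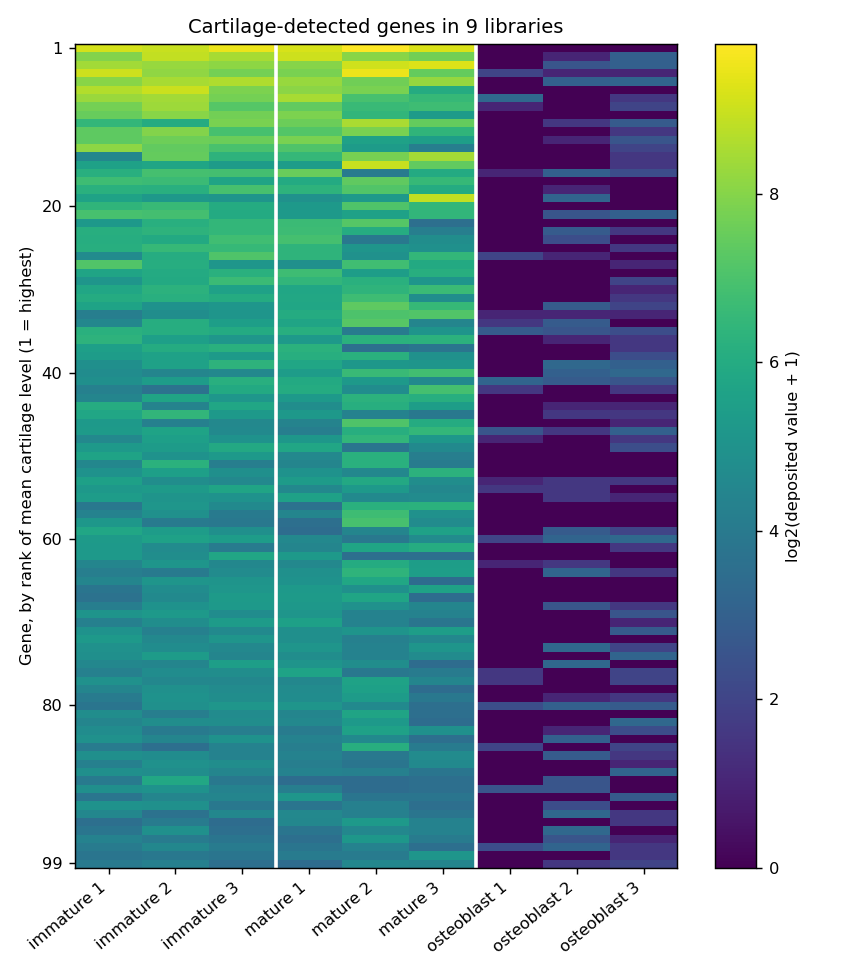
Deposited values of the 99 genes (rows, ordered by mean cartilage level) in the 9 libraries (columns), coloured by log2(value + 1). The cartilage columns fade from top to bottom, from a mean of 68.8 ppm to 1.68 ppm, and the osteoblast columns hold values of at most 9.

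ENSXETG00000023476 had the highest cartilage level. It stood at 64.2, 63.5 and 87.7 ppm in the immature libraries, at 77.7, 77.1 and 42.4 ppm in the mature libraries, and was listed at 0 in all 3 osteoblast libraries. A count of 0 allowed up to 0.379, 0.397 and 0.230 ppm in osteoblast replicates 1 to 3, which is 3 estimated reads and covers counting error only. Its level was 71.8 ± 13.8 ppm in immature and 65.7 ± 20.2 ppm in mature chondrocytes (SD, n = 3). In deposited values it was also among the most even of the 99 genes, with a highest cartilage value 1.76 times its lowest. In ppm this ratio was 2.07.

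ENSXETG00000018148 had the next highest cartilage level. It stood at 27.9, 60.5 and 44.0 ppm in the immature libraries, at 68.3, 23.0 and 14.7 ppm in the mature libraries, and at 0, 0.113 and 0.643 ppm in the osteoblast libraries. Its immature and mature libraries overlapped, and the highest and the lowest cartilage level were both in mature libraries. On the scale log2(value + 9.52) its difference from osteoblasts was 4.93 in immature and 4.73 in mature chondrocytes (SE 0.62 for each).

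The gene at rank 3 averaged 39.3 ppm over the cartilage libraries. It stood at 38.5, 39.5 and 33.4 ppm in the immature libraries, at 33.7, 46.8 and 43.8 ppm in the mature libraries, and at 0, 0.566 and 0.643 ppm in the osteoblast libraries. Its highest deposited cartilage value was 2.40 times its lowest, beside 2.52 times for ENSXETG00000018148. In ppm these ratios were 1.40 and 4.66, so the comparison depended on the scale.

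**Figure D2:**
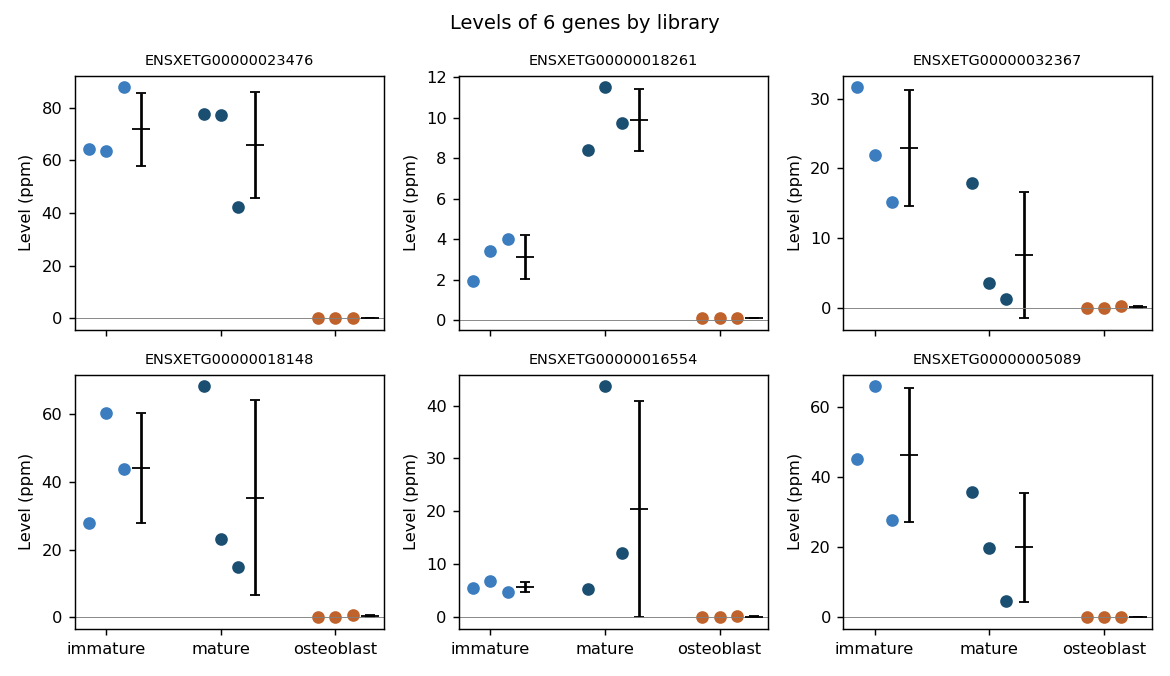
Level in ppm of each library's total (y axis, linear) of 6 cartilage-detected genes in immature, mature and osteoblast libraries. Points are libraries and bars show the mean and SD of 3 libraries. ENSXETG00000023476 and ENSXETG00000018148 had the highest cartilage levels, the middle column shows the genes with the largest mature minus immature difference, and the right column those with the most negative one.

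Detection in cartilage alone did not mean that bone held no reads. Of the 99 genes, 21 were listed at 0 in all 3 osteoblast libraries, 32 in 2 of them, 36 in 1, and 10 had a value above 0 in every osteoblast library. Of the 297 osteoblast values, 163 were 0, or 54.9%. The highest was 9, or at most 1.14 ppm and 10.8 estimated reads. The highest osteoblast value of a gene was 1 or 2 for 26 genes, 3 to 5 for 20 and 6 to 9 for 32. In 88 of the 99 genes the lowest cartilage value was at least 2 times the highest osteoblast value. The rule set every cartilage value at 10 or more, so this was fixed in advance for genes with osteoblast values up to 5.

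The osteoblast libraries were unequal in these residual values. Osteoblast replicate 1 listed 77 of the 99 genes at 0, replicate 2 listed 52 and replicate 3 listed 34. Over all genes in the table they listed 21.6%, 9.74% and 11.0% at 0, so replicate 1 also had the most zeros in the table as a whole. Replicate 3 had the most reads, an estimated 13070000 against 7910000 and 7560000, and the fewest zeros among the 99 genes. The part of depth in these counts was not tested. The 21 genes at 0 throughout bone were found at all levels, with 3 among the 10 most abundant genes, 6 among ranks 11 to 50 and 12 among ranks 51 to 99.

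**Figure D3:**
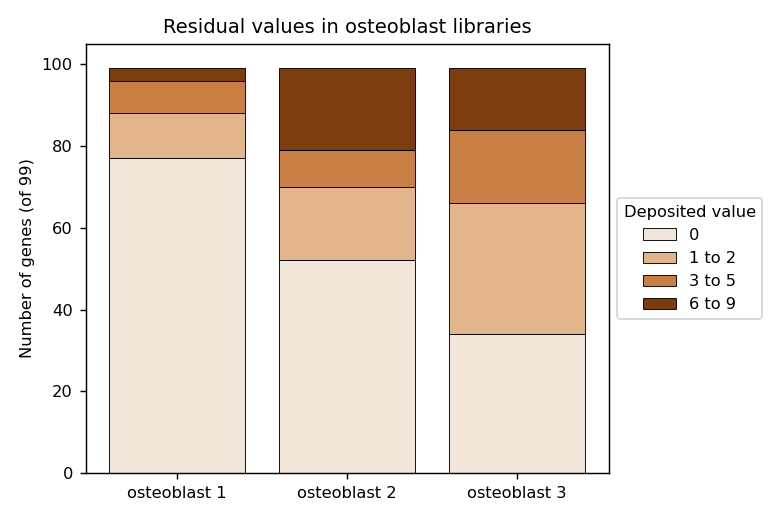
Number of the 99 genes (y axis) with a deposited value of 0, 1 to 2, 3 to 5 or 6 to 9 in each osteoblast library. Zeros fall from 77 in replicate 1 to 52 in replicate 2 and 34 in replicate 3.

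Genes were fitted in 1 limma model over the 9 libraries, with p-values adjusted over all 9080 genes tested. All 99 genes passed the filter on low values, which the rule guarantees. In immature chondrocytes against osteoblasts 57 of the 99 were called higher at an adjusted p under 0.05 and 0 lower, where 5.51% of all genes tested were called higher and 7.79% lower. In mature chondrocytes against osteoblasts 61 were called higher and 0 lower, where 4.52% of all genes were called higher and 7.21% lower. The rule used both contrasts, so nothing is read from these counts. They share the osteoblast libraries, and 41 genes were called in both and 22 in neither. This overlap was not counted over all genes tested, so nothing is read from it either. The median log2 difference of the 99 genes was 1.99 in immature and 2.16 in mature chondrocytes, beside 0.23 and 0.12 for all genes tested. The differences ran from 0.97 to 5.98 and from 0.76 to 6.17. The added 9.52 compresses them at low levels.

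Both counts moved with the libraries in the fit, as did those over all genes. The immature count fell from 57 to 27 without immature replicate 1 and to 23 without immature replicate 2 or replicate 3, while the genes called higher in the whole table fell from 500 to 186, 174 and 174. The mature count fell from 61 to 39 without mature replicate 2, and that of the whole table from 410 to 226.

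The rule was narrow on the bone side and on the mature side. Of 6114 genes at the detection level in all 6 cartilage libraries, 4909 also reached it in all 3 osteoblast libraries, 817 in 2, 281 in 1 and 107 in none. The 107 were 32.9% of the 325 genes detected throughout immature cartilage and in no osteoblast library, and 76.4% of the 140 detected throughout mature cartilage and in no osteoblast library. The other 218 of the 325 fell under the level in at least 1 mature library. Mature replicate 1 was under it for 36 of these, mature replicate 2 for 147 and mature replicate 3 for 147, and 72 were lost in replicates 2 and 3 while replicate 1 kept them. The mirrored rule, every osteoblast and no cartilage library with no exclusions, gave 255 genes.

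Of the 107 genes, 8 were left out for a difference between mature and immature cartilage. In 7 of them mature replicates 2 and 3 were at least 4 times the highest immature value plus the level. The largest of these stood at values of 51, 61 and 63 in the immature libraries, 44 in mature replicate 1, and 1095 and 5046 in mature replicates 2 and 3. The remaining gene was high in the immature libraries, at 157, 117 and 124, and at 82, 16 and 11 in the mature ones. In all 8 genes, the log2 value of mature replicate 1 was closer to the mean of the immature libraries than to the mean of mature replicates 2 and 3. The same held for 75.0% of all genes tested. The 8 genes were picked for a difference of mature replicates 2 and 3 from the immature libraries, so nothing is read from this.

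Many genes sat close to the edge of the rule. A gene could enter with a value of 10 and 10 of the 99 had that value in at least 1 cartilage library. Just outside were 138 genes that missed the level in 1 cartilage library alone and were under it throughout bone. The missing value was 9 in 7 of them, 8 in 17 and 0 in 48, and the missing library was mature replicate 2 for 57 and mature replicate 3 for 53. On the bone side, 9 of the 99 had an osteoblast value of 9. Of the 281 genes that reached the level in 1 osteoblast library, 1 had the value 10 there and 8 had the value 11, while the median was 44.0 and the highest 442.

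The number of genes depended on single libraries. Leaving out a library also drops a condition of the rule, so a rise was largely built in. From 97 to 99 of the 99 genes were kept each time. With osteoblast replicate 2 left out of the rule 229 genes passed, and with osteoblast replicate 3 left out 209 passed. Without osteoblast replicate 1, which had the most zeros, 128 passed. Leaving out mature replicate 2 gave 152 genes and leaving out mature replicate 3 gave 148. Leaving out mature replicate 1 gave 108, and leaving out any 1 immature library gave 99 to 110.

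**Figure D4:**
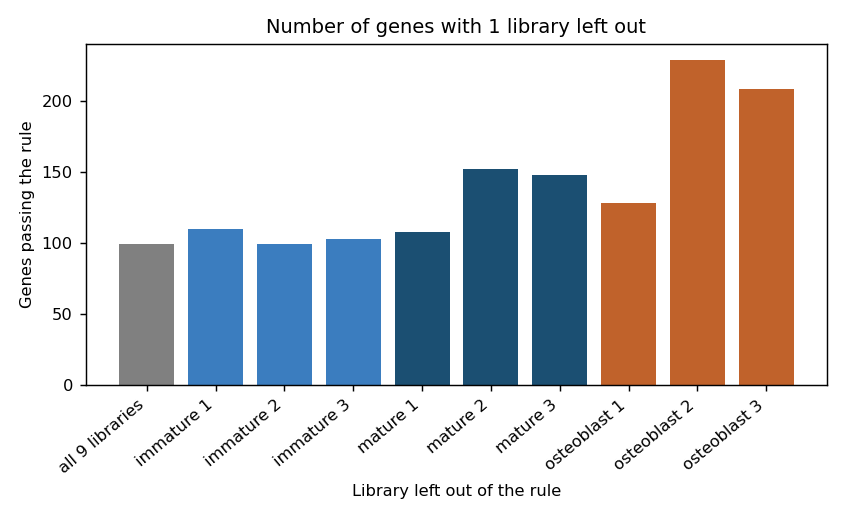
Number of genes that pass the rule (y axis) with all 9 libraries, where it is 99, and with each library left out of the rule in turn. The tallest bars are those without osteoblast replicate 2, at 229, and without osteoblast replicate 3, at 209.

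Within cartilage the 99 genes had no common direction from immature to mature chondrocytes. The rule removed genes with a large difference between these groups, so the range is limited by the choice of genes. The mean on the log2 scale was higher in mature chondrocytes for 48 of the 99, where it was for 43.7% of all genes tested. Among genes at the detection level in all 6 cartilage libraries the share was 48.7%. The median log2 difference was -0.02, beside -0.09 for all genes tested, and the range was -1.74 to 1.73. With every library brought to the same total, the median was -0.26 for the 99 genes and -0.37 for all genes, so both shifted downward by over 0.1 and directions near 0 depend on the scaling. Limma called 0 of the 99 genes, where it called 0% of all genes. At an unadjusted p under 0.05 there were 3 of the 99, where 5.03% of all genes lay under it. Without mature replicate 1 limma again called 0 of the 99, where 2.95% of all genes were called, and 14 of the 99 had an unadjusted p under 0.05, where 14.7% of all genes did.

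The 3 mature libraries were unlike each other for these genes. Mature replicate 1 had a median log2 difference of -0.01 from the immature mean, with a range of -1.35 to 1.09. The median was 0.24 in mature replicate 2, with a range of -2.09 to 3.17, and -0.30 in mature replicate 3, with a range of -2.86 to 3.32. For all genes tested these medians were 0.00, -0.17 and -0.08. For 75 of the 99 genes mature replicate 1 was closer to the mean of the immature libraries than to the mean of mature replicates 2 and 3, as it was for 75.0% of all genes tested. Across the 99 genes, which are not independent replicates, its log2 values correlated at 0.79, 0.85 and 0.95 with immature replicates 1 to 3. With mature replicates 2 and 3 they correlated at 0.55 and 0.56. Mature replicates 2 and 3 correlated at 0.68 with each other, and the immature libraries at 0.82 to 0.86 among themselves.

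**Figure D5:**
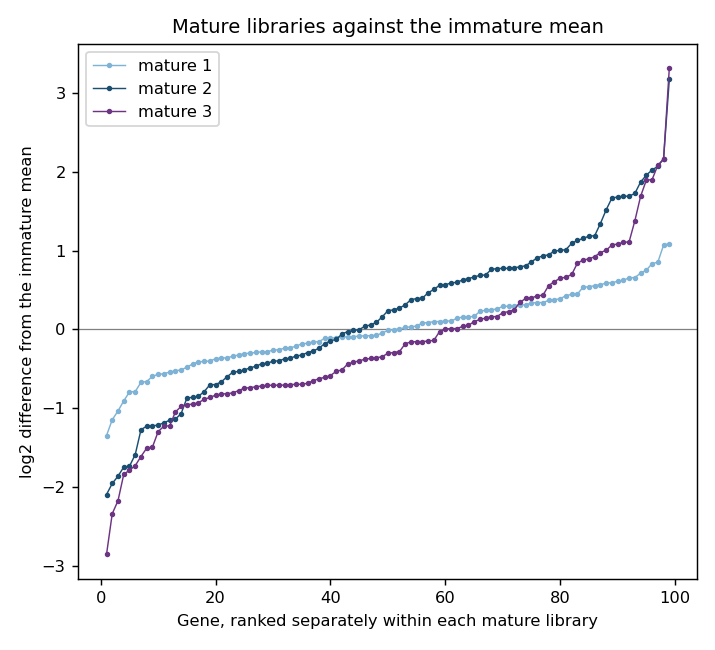
Log2 difference of each mature library from the immature mean (y axis) for the 99 genes, ranked separately within each library (x axis), on the scale log2(value + 9.52). Mature replicate 1 stays between -1.35 and 1.09, while mature replicates 2 and 3 reach 3.17 and 3.32.

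Mature replicate 2 alone held the highest deposited value of the 6 cartilage libraries for 34 of the 99 genes, and mature replicate 3 alone held the lowest for 34. For all genes tested these shares were 20.7% and 20.3%. On the ppm scale mature replicate 2 was highest for 28 genes and mature replicate 3 lowest for 53, where the shares over all genes tested were 15.0% and 36.3%. Over the 6114 genes at the detection level in all 6 cartilage libraries, which the rule also required, the shares were 14.5% and 44.1% in ppm. In deposited values they were 22.2% and 21.7%. Mature replicates 2 and 3 both lay above every immature library for 20 genes, where 18.4% of all genes did, and both below for 23, where 25.8% did. In ppm the counts were 9, where 9.41% of all genes lay above, and 39, where 44.6% lay below. In deposited values, mature replicates 2 and 3 lay on opposite sides of the immature range for 16 genes, where 12.3% of all genes did. The median SD within a group, on the log2 scale, was 0.32 in immature and 0.62 in mature chondrocytes for the 99 genes, and 0.34 and 0.67 for all genes tested.

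All 3 mature libraries lay above all 3 immature libraries for 6 genes, where 4.57% of all genes did so, and below them for 5, where 5.94% did. In ppm there were 4 such genes above, where 2.89% of all genes lay, and 8 below, where 8.20% lay. Out of 99 genes, these counts lay near the shares over all genes.

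ENSXETG00000018261 had the largest mature minus immature difference of the 99. It stood at 1.92, 3.44 and 3.99 ppm in the immature libraries, at 8.43, 11.5 and 9.75 ppm in the mature libraries, and at 0.127, 0.113 and 0.0919 ppm in the osteoblast libraries. The 3 groups did not overlap, and in ppm mature replicate 1 stood near the other mature libraries. In deposited values mature replicate 1 lay between, at 64. Mature replicates 2 and 3 were at 131 and 137 and the immature libraries at 17, 27 and 33. The log2 difference of this gene was 1.73 (SE 0.60), and 1.43 with the libraries brought to the same total.

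ENSXETG00000016554 followed, through 2 libraries. It stood at 5.42, 6.75 and 4.83 ppm in the immature libraries and at 5.40, 43.6 and 12.2 ppm in the mature libraries, and at 0, 0 and 0.184 ppm in the osteoblast libraries. Mature replicate 1 lay within the immature range and mature replicate 2 was the highest. Its log2 difference was 1.57 (SE 0.79), and 1.23 with the libraries brought to the same total.

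ENSXETG00000032367 had the most negative difference of the 99. It stood at 31.6, 21.9 and 15.1 ppm in the immature libraries, at 17.9, 3.50 and 1.21 ppm in the mature libraries, and at 0, 0 and 0.276 ppm in the osteoblast libraries. Mature replicate 1 again lay within the immature range, and the other mature libraries lay below it. Its log2 difference was -1.74 (SE 0.74), and its highest cartilage value was 16.5 times its lowest, the widest range of the 99.

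ENSXETG00000005089 had the next most negative difference. It stood at 45.1, 65.7 and 27.7 ppm in the immature libraries and at 35.6, 19.7 and 4.55 ppm in the mature libraries, and was listed at 0 in all osteoblast libraries. Immature and mature libraries overlapped through mature replicate 1. Its log2 difference was -1.14 (SE 0.69).

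A single library stood apart for some genes. The gene ranked 19 by cartilage level stood at 3.24 to 5.53 ppm in 5 cartilage libraries and at 33.6 ppm in mature replicate 3. The gene ranked 14 was instead lowest in immature replicate 1, at 2.48 ppm. Its other cartilage libraries ranged from 9.55 to 24.8 ppm. Over the 99 genes the highest deposited cartilage value was a median of 3.57 times the lowest. It stayed within 2-fold for 8 genes and within 4-fold for 57, and exceeded 10-fold for 7. Among the 6114 genes at the detection level in all 6 cartilage libraries, these shares were 20.7%, 68.1% and 6.51%. Those genes had a higher median cartilage level, 22.2 ppm against 4.12 ppm, and the part of level was not tested.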

How the data were processed

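Per the labels' protocols, RNA of laser-captured cells was purified with a low-input kit and DNase, then amplified for 1 round. Trimmomatic 0.36, STAR 2.5.3a and edgeR are named in the submitters' processing notes. Not given in the sources used here are the genome build, annotation, counting, gene filter and scaling. The authors deposited whole numbers, which were taken as a score: counts of reads, multiplied by a factor for each library and then rounded. The worth of 1 read was estimated from the spacing of low values. It was under 1 in several libraries, so reads could not be restored exactly and count models were left out.

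The scale log2(value + 9.52) was used in limma 3.58.1 (R 4.3.3) with a variance trend and 3 group means. Genes at 9.52 or more in at least 3 libraries were tested, and p-values were Benjamini-Hochberg adjusted. The fit was tested on simulated data in which the mature libraries shared the same mean for each gene. The measured mature libraries were unlike each other, so the simulation does not show how well the fit finds differences in them. Levels in ppm are relative to each library's own total. Named genes were the 2 highest in cartilage and the 2 largest and 2 smallest mature minus immature differences. The genes, and the gene lists, which could not be used without symbols, were chosen with earlier results of these data known. Python 3.11.15, numpy 2.4.6, pandas 2.3.3 and matplotlib 3.10.9 were used.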

Additional observations from a re-analysis of the deposited data

How the results depend on the processing

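The rule gave 99 genes and between 67 and 118 when the detection level was 2 times or 0.5 times as high, of which 42 and 61 were among the 99. With 1 ppm of each library's own total it gave 81, of which 73 were among the 99, and without the exclusions 107. With 1 library left out of the rule, which also drops a condition, the number ran from 99 to 229. Calls against osteoblasts for the same 99 genes were 57 (immature) and 61 (mature). They fell to 22 and 22 at an adjusted p under 0.01 (149 and 142 of all 9080 genes higher, against 500 and 410), and to 36 and 36 with a filter at 5 ppm, which leaves 42 of the 99 (424 and 350 of 6632 genes). The mature count was 38 with a pseudocount of 4 ppm, 29 with library weights and 24 with only the 6 libraries compared. Of all genes 350, 241 and 185 were higher. In the same settings the immature count was 38, 48 and 78, with 416, 449 and 593 of all genes higher. With only the 6 libraries compared the immature count thus rose from 57 while the mature count fell from 61. The closeness of 57 and 61 depended on fitting the 3 groups together. Leave-one-out counts ran from 23 to 68 and from 39 to 52. Over all 9080 genes, those called higher ran from 174 to 649 and from 226 to 506. The median log2 differences of the 99 genes, 1.99 and 2.16, became 3.40 and 3.55 with a pseudocount of 0.25 ppm. With 4 ppm they became 0.89 and 1.03. Over only the 42 genes left by the 5 ppm filter the medians were 2.99 and 2.95. Calls between mature and immature chondrocytes stayed at 0 in each other setting, leave-one-out included, and library weights gave 2, with 240 higher and 228 lower of all 9080 genes. In that comparison the medians ran from -0.13 to 0.11 with 1 library left out. The cause was not tested. With the title number as a replicate block, 69, 67 and 0 of the 99 genes were called, with 625 and 489 higher and 0 called of all genes in the 3 comparisons. Any 2 groups have 1 title number in common, and the libraries sharing one had deviations that correlated at 0.32, -0.10 and 0.10. No such values are given for libraries without a shared number, so these do not decide whether samples were paired. No count model was run, since exact reads were not recovered. A value of 0 in an osteoblast library allows up to 0.230 to 0.397 ppm.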
